A study of Mus musculus with 100 samples.

Results

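The genes described here are 32 mouse genes of the integrated stress response and of amino acid and one-carbon metabolism, taken by gene symbol from a list. All 32 were found among the 24210 genes that could be named in the deposited tables, and all 32 passed the filter on low values that left 12973 genes for testing. The measurements are messenger RNA levels in V6.5 cells, a mouse embryonic stem (ES) cell line, in 100 libraries that form 50 groups of 2. In 47 groups a plasmid carried a short hairpin RNA (shRNA) against 1 subunit of a transcription cofactor, and 3 groups received a control shRNA plasmid.

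Cells of every group had been grown with serum, LIF, nonessential amino acids and glutamine on feeder fibroblasts. After removal of the feeders they were transfected with 1.8 µg of plasmid, given 1 µg/ml puromycin from 24 h, and selected for 72 h, so the controls share the transfection and the drug. Each control title names the knockdowns it serves. Set A holds 15 subunits of TFIID, the factor that recognises core promoters, and 5 subunits of the Mediator tail (Med15, Med16, Med23, Med24 and Med25). In set B are 23 other subunits of Mediator, the complex that links transcription factors to RNA polymerase II, together with Gcn5 and Usp22 of the SAGA coactivator. Set C holds Med1 and Med14. Whether a pair of libraries comes from separate cultures is not stated in the labels; the p-values below therefore refer to variation among these libraries, which may be technical.

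The integrated stress response begins when a kinase such as GCN2 or PERK phosphorylates the translation factor eIF2α, which lowers general protein synthesis and favours translation of the transcription factor ATF4. ATF4 then raises genes that import amino acids, make serine, asparagine and proline, supply one-carbon units and charge transfer RNAs, while CHOP (gene Ddit3) and GADD34 (gene Ppp1r15a) act in the later and feedback phases. Mouse ES cells rely on threonine, which threonine dehydrogenase (gene Tdh) breaks down to feed glycine and one-carbon pools.

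ATF4 is known to bind, as a dimer with C/EBP proteins, a composite element that reads TGATGNAA. A search for these letters on both strands of the 250 bases before the gene start found it in 5 of the 26 members that have a promoter sequence in RefSeq (build GRCm38.p6), or 19.2%, against 3.91% of 27025 genes in that table and 2.39% of 10145 tested genes. The 5 windows are shown because they hold these matches; each is 60 bases, written 5′ to 3′ on the strand of the gene, with the matched letters in capitals. TTGCATCA is the element read from the other strand.
Nupr1, chr7:126625553-126625612, minus strand: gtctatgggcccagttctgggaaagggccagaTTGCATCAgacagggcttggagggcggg
Chac1, chr2:119351017-119351076, plus strand: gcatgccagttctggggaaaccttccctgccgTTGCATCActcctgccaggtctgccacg
Asns, chr6:7693210-7693269, minus strand: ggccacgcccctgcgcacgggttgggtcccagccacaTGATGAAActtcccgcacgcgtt
Pycr1, chr11:120643824-120643883, minus strand: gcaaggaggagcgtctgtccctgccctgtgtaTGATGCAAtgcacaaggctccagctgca
Got1, chr19:43524680-43524739, minus strand: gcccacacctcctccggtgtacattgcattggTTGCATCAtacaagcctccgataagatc
Nupr1 is a small stress-induced nuclear protein, Chac1 degrades glutathione, Asns makes asparagine, Pycr1 completes proline synthesis and Got1 is the cytosolic aspartate transaminase. The element lay 110 to 103 bases before the start in Nupr1, 193 to 186 in Chac1, 23 to 16 in Asns, 103 to 96 in Pycr1 and 102 to 95 in Got1. Cth, Eif4ebp1, Slc1a5, Slc7a3, Slc7a5 and Tdh had no promoter sequence there and were not searched. A match of letters is a description and not a bound site.

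Library depth, read from the steps between low values, was 17.25 to 39.32 M reads (median 23.32 M). The smallest member value of any library rested on 48 reads, for Nupr1. In set B the targeted genes stood at 14.2 to 68.9% of the control, the highest value being Med18. Targets of set A stood at a median of 102% of the control in libraries labelled replicate 1 and at 34.1% in those labelled replicate 2, and the latter were used there. In set C the replicate 2 targets were at 97.9 and 99.1% of control, and the replicate 1 targets at 66.0 and 61.5%. The ES cell markers Pou5f1, Sox2, Nanog, Zfp42, Esrrb and Utf1 were present in all 100 libraries, with Pou5f1 between 127 and 447 RPKM, the read number scaled by transcript length and library size. Of 8 feeder fibroblast markers Lum, Postn, Dcn and Col3a1 were at 0 in 78, 55, 32 and 6 of 100 libraries. Col1a1, Col1a2, Thy1 and Pdgfrb were at 0 in none, with highest levels of 4.03, 3.24, 1.99 and 0.849 RPKM, and the sum of all 8 was at most 8.61 RPKM in any library.

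In set B the members were lower in knockdowns of most Mediator subunits. Calls rest on limma against the 2 set B control libraries, two-sided, with Benjamini-Hochberg adjustment over all 12973 tested genes and a threshold of 0.05. Over 25 knockdowns the 32 members gave 800 pairs of member and knockdown, of which 487 (60.9%) were called lower and 42 (5.25%) higher. Over all tested genes 15% of the pairs were called lower and 15.6% higher. Among the 9447 genes at least as abundant as the lowest member these shares were 17% and 16.8%. The members were chosen with earlier results of these data known, so the difference from all genes is a description and not independent evidence. The median member change was below 0 in 25 of 25 knockdowns, but its size ran from -0.62 in shMed10 to -0.01 in shMed20. In shMed20 19 of 32 members were below 0, and in shMed9, with a median of -0.02, 17 were. The median of all genes lay between -0.03 (shMed12) and 0.04 (shGcn5). The share of members called lower was above that of all genes in each of the 25. All 25 comparisons share the same control libraries, so they are not 25 separate observations. With all 100 libraries in 1 fit, 117 of the 800 pairs were called lower and 0 higher by limma (208 and 7 at an unadjusted p under 0.05), against 3.82% and 4.44% over all genes. In bulk RNA, fewer cells of a type and less RNA per cell cannot be told apart, and RPKM values are shares of a library that cannot show a change common to all genes.

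**Figure D1:**
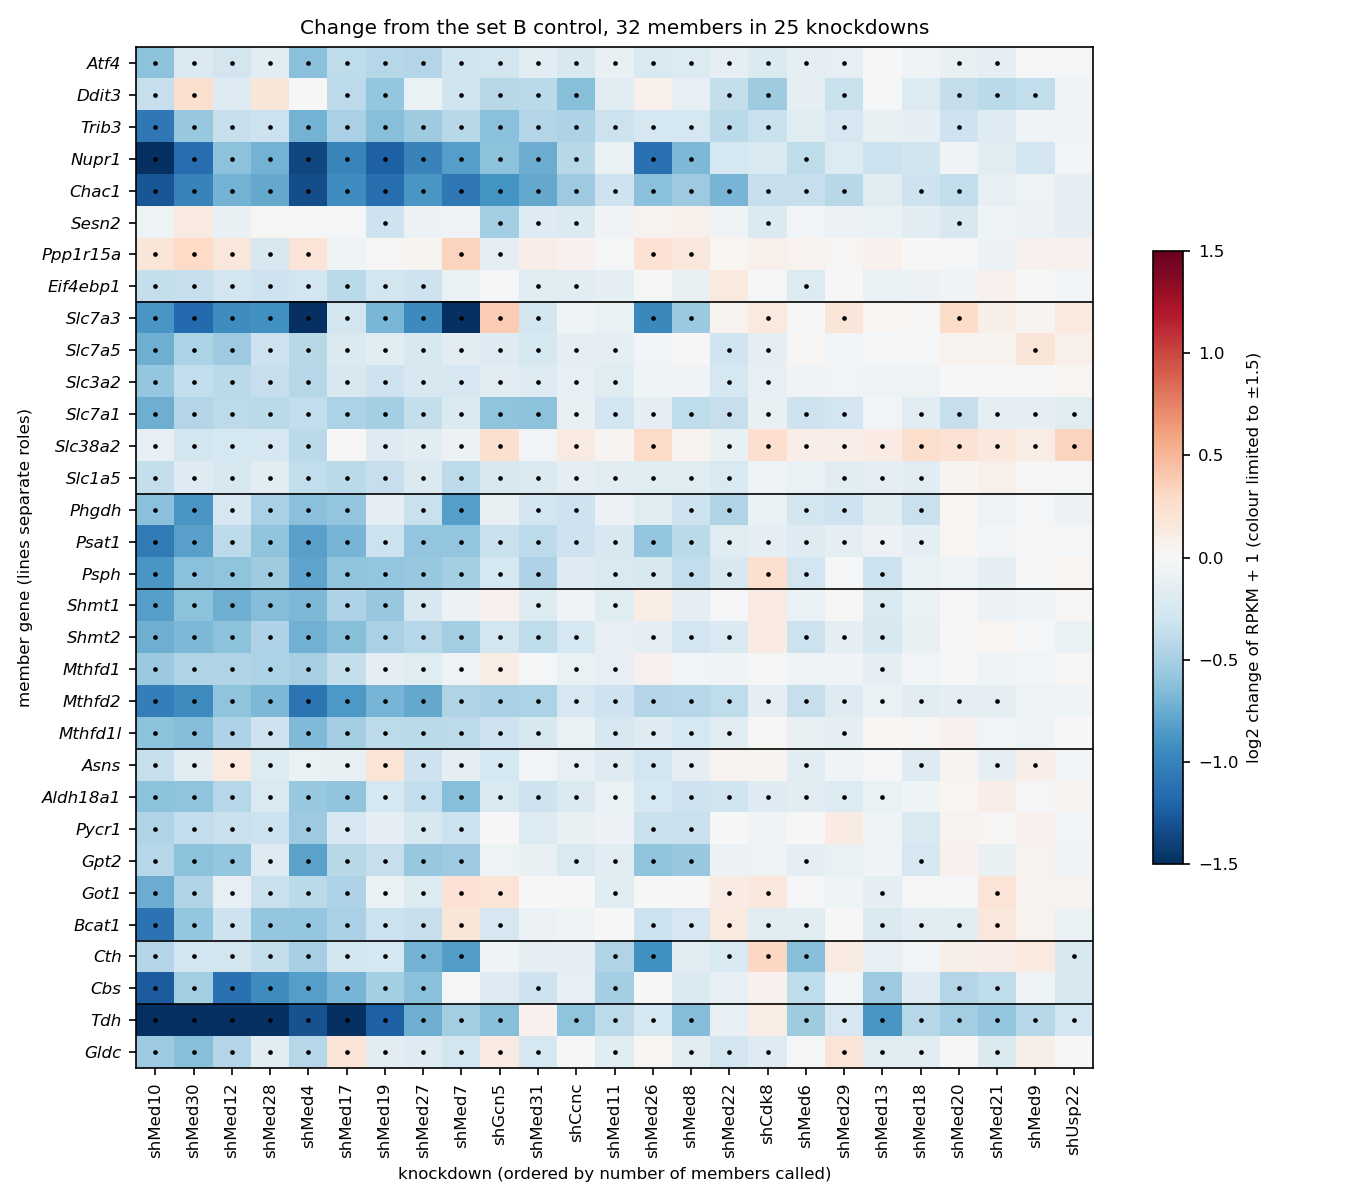
Colour gives the log2 change of RPKM + 1 of each member (rows, grouped by role) in each set B knockdown (columns) against the control, and a dot marks an adjusted p under 0.05. Most cells are blue in the 9 columns at the left, from shMed10 to shMed7, while the Slc38a2 and Ppp1r15a rows hold red cells.

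Of the 32 members 23 were called lower in at least 13 of the 25 knockdowns, against 6.81% of all tested genes, and 0 were called higher that often by limma, against 8.23%. Slc7a1, a carrier of arginine and lysine, was called lower in 24 knockdowns. Mthfd2, a mitochondrial folate enzyme, was called lower in 23 and Tdh in 22, followed by Atf4, Chac1 and the serine synthesis enzyme Psat1 with 21 each. At the other end stood Ppp1r15a, called lower in 2 and higher in 7, and the leucine sensor Sesn2, lower in 6 and higher in none.

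**Figure D2:**
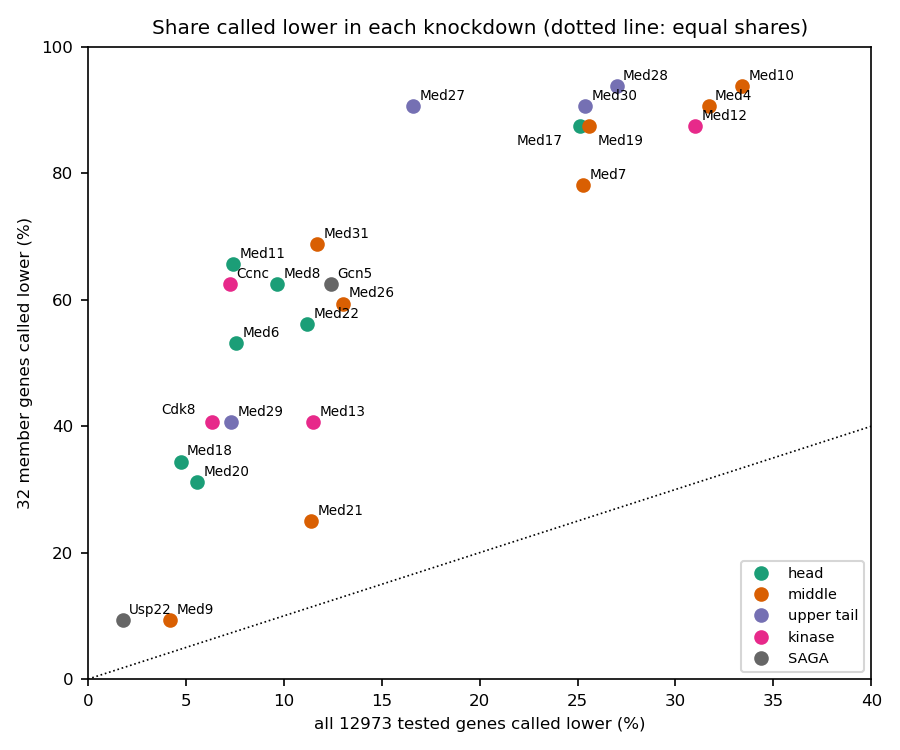
Each point is 1 set B knockdown, with the percentage of all 12973 tested genes called lower on the horizontal axis and the percentage of the 32 members called lower on the vertical axis. All 25 points lie above the dotted line of equal shares, with shUsp22 and shMed9 nearest to it at 9.38% of the members.

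Med4, a subunit of the middle module that the series' design text names as a key subunit, gave 29 members lower and 1 higher of 32 in its knockdown, against 31.7% of all genes lower and 29.3% higher. The median member changed by -0.58 on the log2(RPKM + 1) scale and the median of all genes by -0.02. The arginine and lysine carrier Slc7a3 stood at 41.0 and 39.9 RPKM in the control libraries and at 10.9 and 11.1 in the shMed4 libraries, a log2 change of -1.79 ± 0.05 (standard error; limma adjusted p = 5.13e-24). Its knockdown libraries agree closely and lie far below both controls. Nupr1 was 17.3 and 16.2 RPKM in the controls and 5.97 and 5.83 after shMed4, a log2 change of -1.36 ± 0.13 (limma adjusted p = 1.16e-10). Chac1 was 12.6 and 11.8 RPKM in the controls and 3.98 and 4.49 in the knockdown, -1.34 ± 0.09 on the log2 scale (limma adjusted p = 4.56e-14). Both genes carry the composite element in the windows above, whereas Slc7a3 had no promoter sequence to search.

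Tdh went from 51.5 and 52.05 RPKM in the control libraries to 20.3 and 20.3 with shMed4 (log2 change -1.31 ± 0.05, limma adjusted p = 4.74e-20). Mthfd2 went from 50.8 and 48.6 to 22.8 and 22.6 RPKM (-1.10 ± 0.03, limma adjusted p = 1.16e-22). These were the 5 members whose level fell by at least 1 on the log2 scale. Of them Nupr1 and Chac1 held the element, Mthfd2 had no match, and Slc7a3 and Tdh were not searched. Atf4 itself fell from 188 and 187 RPKM to 122 and 121 (-0.62 ± 0.03, limma adjusted p = 1.04e-17). On this scale its messenger RNA was lower by less than those of Chac1 and Nupr1; the ATF4 protein was not measured here. Ddit3, which encodes the pro-apoptotic factor CHOP, read 12.9 and 12.6 RPKM in the controls and 12.1 and 13.2 after shMed4, and these values overlap (log2 change -0.01 ± 0.10, limma adjusted p = 0.953). Sesn2 also was not called (-0.02 ± 0.06), and Ppp1r15a rose slightly, from 12.3 and 12.1 to 13.8 and 14.4 RPKM (0.19 ± 0.05, limma adjusted p = 0.000756). Asns, though it carries the element 23 bases before its start, had one of the smallest called changes: 110 and 111 RPKM in the controls, 101 and 105 with shMed4, -0.10 ± 0.03 (limma adjusted p = 0.00503).

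The fall in the shMed4 libraries went with a fall of the ES cell markers. All 6 of them were called lower there, Zfp42 by -1.33 and Nanog by -1.06 on the log2 scale, and over the 25 set B knockdowns 58% of their pairs were called lower. Of the feeder markers Col1a1 was called higher in shMed4, from a mean of 0.386 to 1.33 RPKM, while the other 2 that were tested, Col1a2 (0.11) and Thy1 (-0.10), were not called. The part of these markers in the member changes was not tested.

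**Figure D3:**
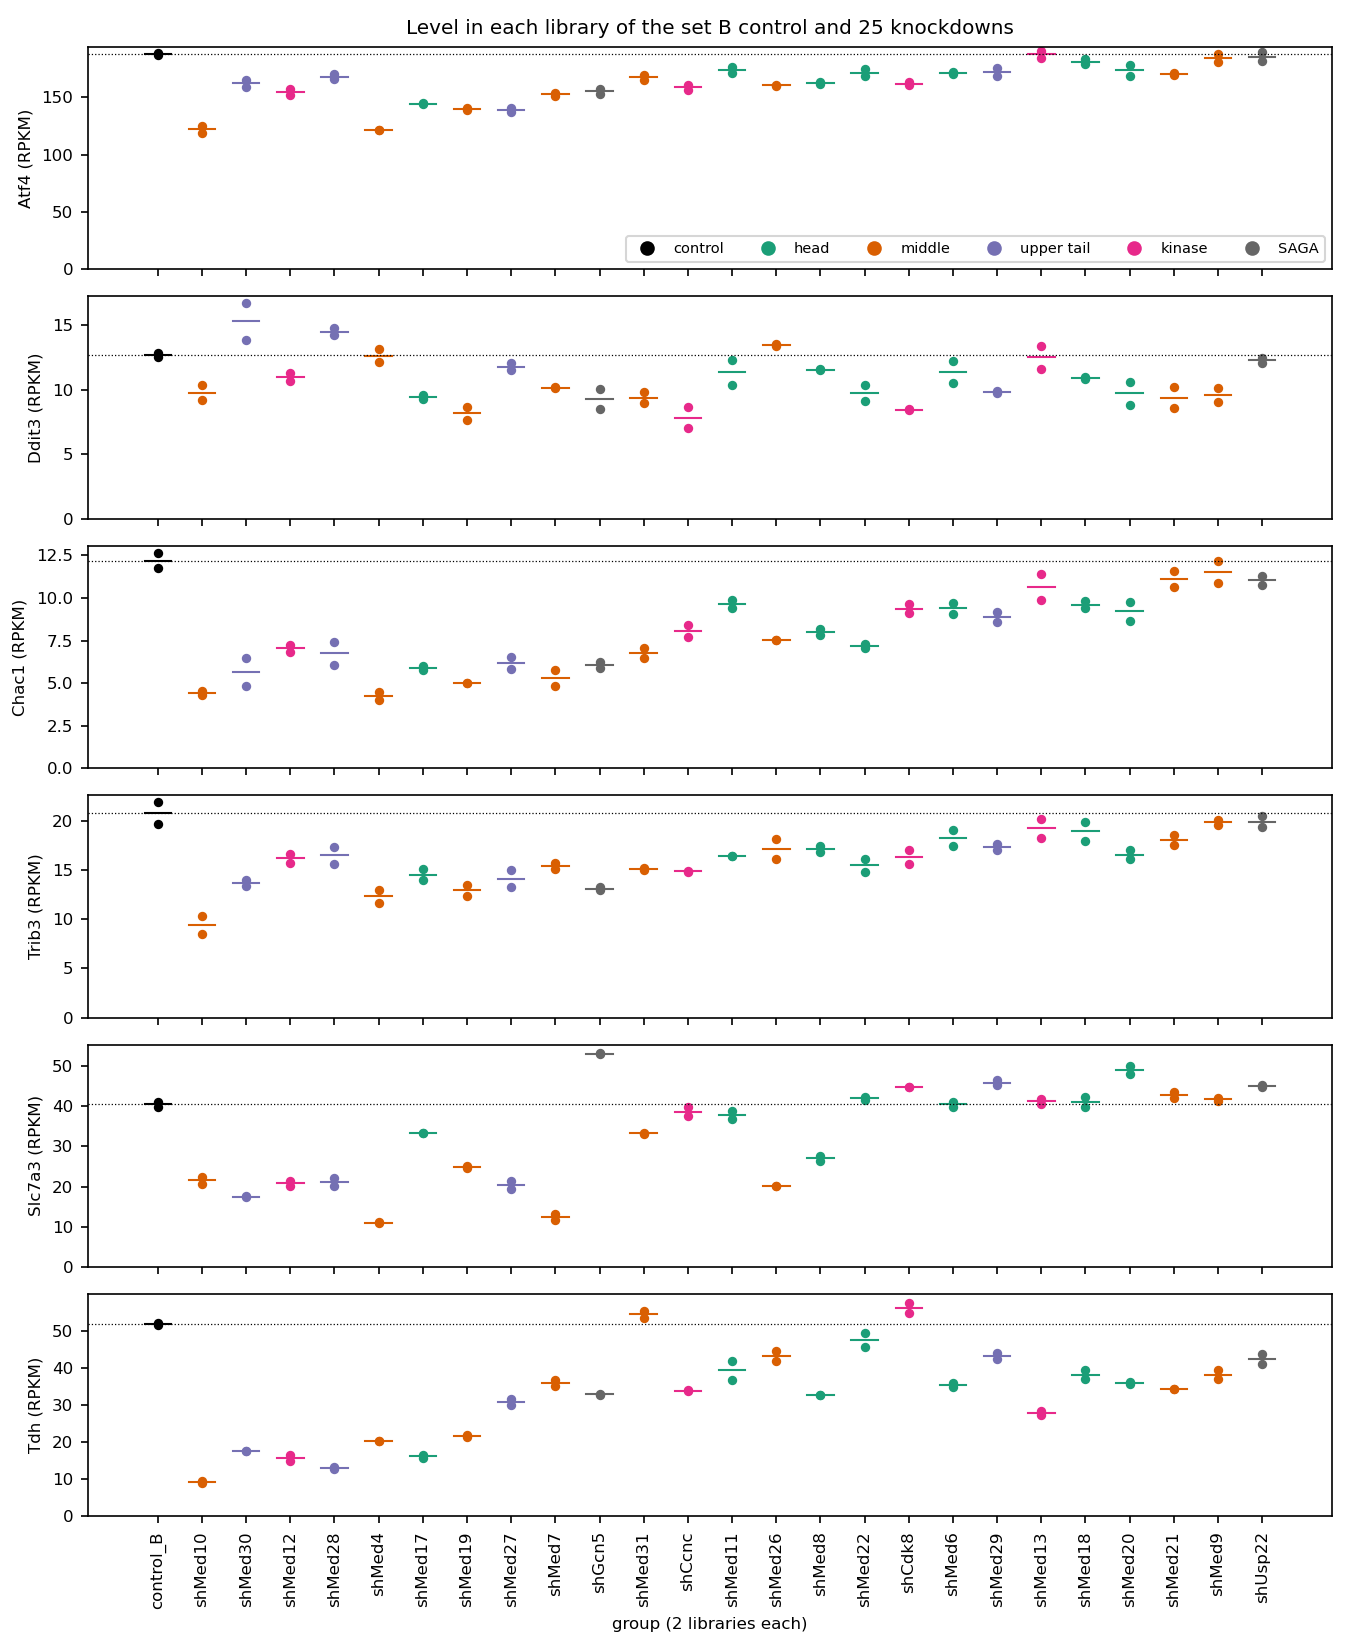
Points are the RPKM in each library of the set B control and of the 25 knockdowns for Atf4, Ddit3, Chac1, Trib3, Slc7a3 and Tdh, with a bar at the mean of each group and a dotted line at the control mean; colours give the module. The Chac1 means of all 25 knockdowns lie below the control mean, whereas Slc7a3 and Tdh lie on both sides of it.

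Among the 8 stress regulators, 54% of the pairs were called lower in set B and 4% higher, against 15% and 15.6% over all genes. Trib3, a pseudokinase induced by ATF4 and CHOP, was called lower in 19 knockdowns, most in shMed10, where it read 10.3 and 8.50 RPKM against 21.9 and 19.7 in the controls (-1.07 ± 0.08, limma adjusted p = 1.00e-13). Nupr1 had its lowest values there too, 4.31 and 5.97 RPKM (-1.54 ± 0.13). Ddit3 was called lower in 13 knockdowns, furthest in shCcnc with 7.04 and 8.64 RPKM (-0.64 ± 0.10). It was called higher in shMed30, at 13.9 and 16.8 RPKM (0.24 ± 0.10, limma adjusted p = 0.0343). Sesn2 fell most in shGcn5, to 30.0 and 29.8 RPKM from 44.6 and 41.3 (-0.51 ± 0.06). Eif4ebp1, a repressor of cap-dependent translation, was called lower in 11 knockdowns, most in shMed17 (144 and 133 RPKM against 192 and 177). Ppp1r15a, which recruits the phosphatase that reverses eIF2α phosphorylation, was highest in shMed7 with 15.7 and 15.5 RPKM (0.33 ± 0.05) and lowest in shMed28 with 10.5 and 9.84 RPKM (-0.24 ± 0.05). The regulators thus ranged from a gene lowered in most knockdowns to one raised more often than lowered.

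Of the pairs of the 6 amino acid transporters, 62.7% were called lower and 11.3% higher (15% and 15.6% over all genes). Slc7a5 and Slc3a2, the light and heavy chains of the LAT1 leucine exchanger, were each called lower in 15 knockdowns, and both were lowest in shMed10: Slc7a5 at 51.1 and 50.0 RPKM against 84.3 and 85.0, Slc3a2 at 53.3 and 53.5 against 80.0 and 81.1. Slc7a1 in shMed10 stood at 11.6 and 11.3 RPKM against 19.6 and 19.7 (-0.73 ± 0.03). Slc1a5, the glutamine carrier ASCT2, was called lower in 19 and was lowest in shMed17 at 20.6 and 20.98 RPKM against 27.9 and 27.99. Slc7a3 was called lower in 12 knockdowns and higher in 4; its highest level was in shGcn5, 52.9 and 53.2 RPKM, above both controls (0.38 ± 0.05, limma adjusted p = 1.97e-07). Slc38a2, the neutral amino acid carrier SNAT2, was the member most often called higher, in 12 knockdowns, and was called lower in 9. It read 87.5 and 83.8 RPKM in shUsp22 against 68.3 and 67.4 in the controls (0.33 ± 0.03, limma adjusted p = 3.91e-09), and 51.1 and 50.6 in shMed4 (-0.41 ± 0.03). The calls of the transporter genes thus went in both directions, though the share called higher was below the 15.6% of all genes.

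The 3 enzymes that make serine from a glycolytic intermediate, Phgdh, Psat1 and Psph, had 70.7% of their pairs called lower and 1.33% higher. Over all genes the shares were 15% and 15.6%. Psat1 fell furthest in shMed10, from 104 and 106 RPKM to 52.1 and 48.6 (-1.04 ± 0.03, limma adjusted p = 1.71e-23), and Psph in the same knockdown from 19.1 and 18.7 to 10.5 and 9.18. Phgdh, the first enzyme of the pathway, was lowest in shMed30 at 8.29 and 7.17 RPKM, while its control libraries differed from each other, at 16.9 and 13.2. Psph was called higher in shCdk8, at 22.3 and 22.6 RPKM (0.23 ± 0.08, limma adjusted p = 0.0360). In the one-carbon group, which moves serine-derived carbon onto folate, 64% of pairs were called lower and 0.8% higher. The mitochondrial enzymes Shmt2, Mthfd2 and Mthfd1l were called lower in 18, 23 and 16 knockdowns, and the cytosolic enzymes Shmt1 and Mthfd1 in 11 and 12. Shmt1 was lowest in shMed10, at 19.4 and 17.4 RPKM against 35.2 and 31.6. The single call in the other direction was Mthfd1 in shGcn5, at 110 and 112 RPKM against 104 and 102 (0.11 ± 0.03, limma adjusted p = 0.00528).

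Of the pairs of the enzymes for asparagine, proline and transamination, 57.3% were called lower and 7.33% higher (15% and 15.6% over all genes). Bcat1, the cytosolic branched-chain transaminase, was 8.56 and 7.79 RPKM in shMed10 against 18.8 and 18.7 in the controls (-1.11 ± 0.04, limma adjusted p = 2.12e-21), but 21.4 and 21.3 in shMed7 (0.18 ± 0.04). Got1 showed the same pair of extremes, 26.2 and 27.5 RPKM in shMed10 and 53.0 and 53.3 in shMed7 against 46.0 and 45.2. Asns was called lower in 15 and higher in 3, with 132 and 124 RPKM in shMed19 as its highest level (0.21 ± 0.03). Gpt2, the mitochondrial alanine transaminase, was lowest in shMed4 at 4.93 and 5.01 RPKM against 9.24 and 9.54. Aldh18a1, which starts proline synthesis, was called lower in 20 knockdowns and Pycr1 in 10. For Pycr1 the control level was only 2.72 and 2.93 RPKM, so its log2 change with a pseudocount of 1 understates the ratio.

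Tdh and Gldc, which handle threonine and glycine, had 76% of their pairs called lower and 6% higher (15% and 15.6% over all genes). Tdh showed the furthest fall of any member, to 9.60 and 8.98 RPKM in shMed10 from 51.5 and 52.05 (-2.36 ± 0.05, limma adjusted p = 1.33e-26). It was 57.4 and 54.7 RPKM in shCdk8, which was not called (0.11 ± 0.05, limma adjusted p = 0.142). Gldc, a subunit of the glycine cleavage system, was lowest in shMed30 at 20.4 and 21.2 RPKM against 32.3 and 33.4 and highest in shMed17 at 37.8 and 37.6 (0.19 ± 0.03). The transsulfuration enzymes Cbs and Cth, which turn homocysteine into cysteine, were each called lower in 14 knockdowns. Cbs was 1.94 and 2.70 RPKM in shMed10 against 7.04 and 6.59 (-1.24 ± 0.09), and Cth 15.4 and 15.5 in shMed26 against 30.7 and 28.9 (-0.91 ± 0.07). Cth was called higher in shCdk8, at 38.1 and 36.1 RPKM (0.31 ± 0.07, limma adjusted p = 0.00133).

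The number of members called differed widely between knockdowns, and beside each count stands the share of all tested genes called in the same direction. In shMed10 30 members were lower and 1 higher (all genes 33.4% and 31.2%), in shMed30 29 and 2 (25.4% and 32.7%), in shMed12 28 and 2 (31% and 26.9%), and in shMed28 30 and 0 (27% and 31.7%). In shUsp22 3 were lower and 1 higher (1.78% and 2.32%), in shMed9 3 and 3 (4.19% and 4.93%), in shMed21 8 and 3 (11.4% and 8.4%), in shMed18 11 and 1 (4.73% and 3.75%) and in shMed20 10 and 2 (5.57% and 5.49%). Between these lay shMed17 and shMed19 with 28 lower and 1 higher each (25.1% and 23.1% of all genes, and 25.6% and 22.6%), shMed27 with 29 and 0 (16.6% and 20.5%), shMed7 with 25 and 3 (25.3% and 19.8%) and shMed31 with 22 and 0 (11.7% and 17.3%). Next came shMed11 with 21 and 0 (7.4% and 8.69%), shCcnc with 20 and 1 (7.25% and 9.2%), shMed8 with 20 and 1 (9.66% and 12.5%), shGcn5 with 20 and 5 (12.4% and 20.1%) and shMed26 with 19 and 2 (13% and 16%). In shMed22 18 members were lower and 2 higher (11.2% and 11.5%), in shMed6 17 and 1 (7.58% and 6.08%), in shMed13 13 and 1 (11.5% and 8.94%), in shMed29 13 and 3 (7.32% and 8.76%) and in shCdk8 13 and 5 (6.31% and 9.13%). Where limma called 0 members higher, the number at an unadjusted p under 0.05 was 0 in shMed28, shMed27 and shMed11 and 1 in shMed31. In the 9 knockdowns with at least 28 members called the target stood at 15.0 to 27.97% of control, and in shUsp22, shMed9, shMed21, shMed20 and shMed18 at 27.0 to 68.9%. In shCcnc, with Ccnc at 14.2 and 14.5% of control, 21 members were called. The relation of the counts to the residual target level was not tested. The shMed10 and shMed12 replicate 1 libraries held the highest summed feeder markers of set B, 7.13 and 7.39 RPKM against 1.46 to 1.99 in the controls. Without its replicate 1, shMed10 had 30 members called lower, all 30 of them among the first 30, and shMed12 had 26, all among its first 28. With both libraries, 2 of the 3 tested feeder markers were called higher and 0 lower in each of these knockdowns, and likewise in shMed30. The part of the feeder markers in the member counts was not tested. In 8 of the 25 knockdowns, all with fewer than 21 members lower, leaving out 1 library moved the count of lower members by over 1.5 times. It was 12 in shCcnc without replicate 1 and 13 without control replicate 1, 8 in shCdk8 and in shMed13 and 11 in shMed6 without control replicate 1, and 7 in shMed18 without either replicate 1 of the knockdown or of the control. In shMed20 it was 4 without replicate 2 or control replicate 1, in shMed29 7 without replicate 2 and 8 without replicate 1 or control replicate 1, and in shMed9 1 without replicate 1 or control replicate 2.

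Because 1 pair of control libraries serves all of set B, each knockdown was also compared with the mean of the other 24, a contrast that uses no control and was added after the data had been seen. The calls then split by construction into both directions, 238 lower and 316 higher of 800. Members lower than in the other knockdowns numbered 29 in shMed10 (34.3% of all genes), 27 in shMed4 (31.7%) and 25 in shMed30 (22.7%). Members higher than in the other knockdowns numbered 29 in shMed9 (11.5% of all genes), 28 in shUsp22 (17.4%) and 26 in shMed21 (18.4%). For each gene the order of the knockdowns is the same in both contrasts by construction, so this contrast gives no separate evidence for that order. The statement that members fell in most knockdowns rests on the control.

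Taking each Mediator knockdown as 1 unit, no member passed the test between modules. limma called 0 of 32 members in either direction between the 4 kinase module knockdowns and the 15 of head and middle (0% of all genes each way), and 0 had an unadjusted p under 0.05. Between the 4 of the upper tail and the 15 of head and middle limma also called 0 members (0% of all genes each way), with 1 higher and 0 lower at an unadjusted p under 0.05. Between the 7 of the head and the 8 of the middle it called 0 (0.00771% of all genes higher and 0% lower), with 2 higher and 0 lower at an unadjusted p under 0.05. The spread within modules was wide: Slc7a3 ranged from 11.03 to 42.9 RPKM over the 8 middle knockdowns and from 27.1 to 49.0 over the 7 of the head. In simulated data this comparison of the kinase module recovered 78% of genes changed by 0.5 and 99% of those changed by 1 on the log2 scale. Those genes were drawn at random and were not the members. The members' standard errors in this comparison ran from 0.06 for Sesn2 to 0.29 for Slc7a3 and 0.36 for Tdh. The recovered shares therefore do not hold for the members that vary most.

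Over the 25 knockdown means of set B, controls left out, the level of many members went with that of Atf4, more so with shMed4 and shMed10 included. As a description, the Pearson r of log2(RPKM + 1) with Atf4 had a median of 0.66 over the other 31 members and exceeded 0.5 for 24 of them, against 17.7% of all tested genes. Without shMed4 and shMed10, the knockdowns farthest from the median Atf4 level, the median was 0.50 and 15 of the 31 exceeded 0.5, against 4.79% of all tested genes. The highest r values were 0.88 for Trib3, 0.87 for Chac1, 0.85 for Mthfd2, 0.84 for Nupr1 and 0.80 for Mthfd1l. Over the 23 knockdowns left without those they were 0.82, 0.82, 0.76, 0.76 and 0.71. The lowest were -0.28 for Ppp1r15a, -0.01 for Sesn2, 0.10 for Ddit3, 0.25 for Asns and 0.39 for Gldc. Among the 5 genes with the element, Nupr1 and Chac1 were thus near the top of this order and Asns near its foot, with Pycr1 at 0.66 and Got1 at 0.56 (0.45 and 0.22 over the 23). Between other members the highest r was 0.96 for Slc7a5 with Slc3a2, the chains of 1 heterodimer, and 0.96 for Mthfd2 with Mthfd1l. All points share libraries and preparation, and these genes were measured in the same libraries.

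**Figure D4:**
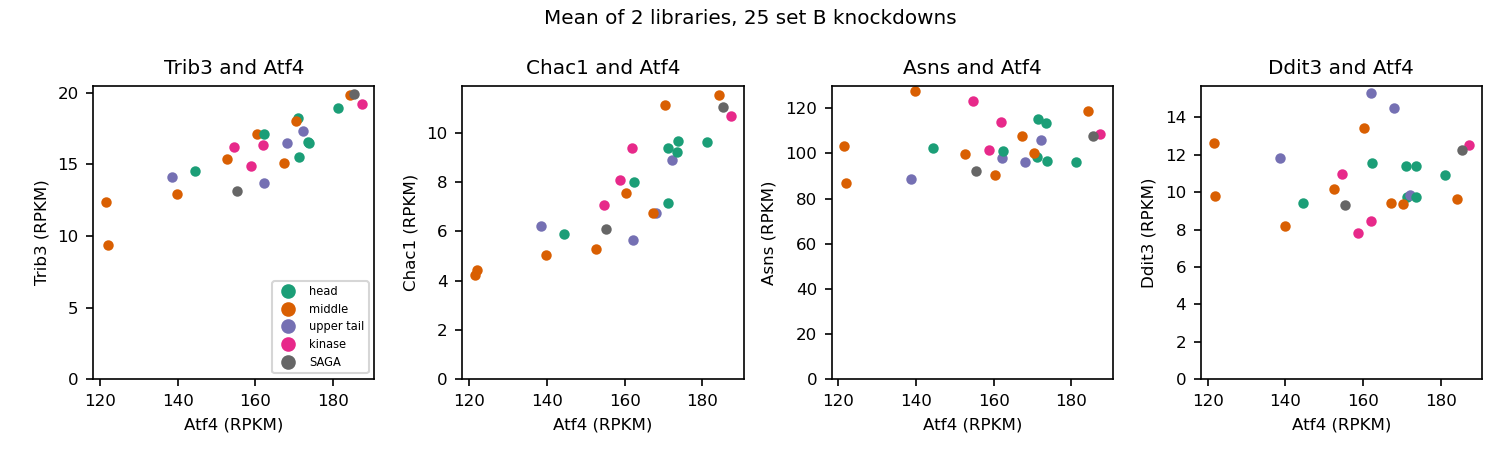
Each point is the mean RPKM of the 2 libraries of 1 set B knockdown, with Atf4 on the horizontal axis and Trib3, Chac1, Asns or Ddit3 on the vertical axis; colours give the module. Trib3 and Chac1 rise along the Atf4 axis (r of 0.88 and 0.87 on the log2 scale), while Asns and Ddit3 show little slope (0.25 and 0.10).

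Other genes of the pathway gave a mixed picture, to be read against the 31.7% of all genes called lower and 29.3% called higher in shMed4 and the 15% and 15.6% over set B. The 12 aminoacyl-tRNA synthetases and the tRNA exporter Xpot, which ATF4 also induces, had 58.5% of their set B pairs called lower and 0.923% higher, and all 13 were lower in shMed4, Yars by -0.56, Xpot by -0.48, Aars by -0.47 and Tars by -0.46. Of 19 other genes linked to ATF4, 8 were lower and 5 higher in shMed4, and over set B 25.7% of their pairs were lower and 11.4% higher: the glycoprotein hormone gene Stc2 changed by -0.80, the related factor Atf5 by -0.66, the stress factor Atf3 by 0.65 and the mTORC1 inhibitor Ddit4 by 0.59. Of 8 genes for eIF2 kinases, their partners and eIF2 factors, 2 were lower and 0 higher there, and over set B 15.5% of their pairs were called lower and 7% higher. The genes of the kinases PERK (Eif2ak3) and GCN2 (Eif2ak4) changed by 0.06 and -0.03 in shMed4 and were not called. Of 12 endoplasmic reticulum chaperone and unfolded protein response genes 7 were lower and 2 higher in shMed4 (30.7% and 13% of their set B pairs), among them Herpud1 by -0.65, Edem1 by 0.37, Sdf2l1 by -0.34 and Hspa5 (BiP) by -0.32. Of 23 other amino acid and folate enzymes 17 were lower and 1 higher in shMed4 (29.9% and 12% of their set B pairs); Gcat, which follows Tdh in threonine breakdown, changed by -0.94, Ahcy by -0.76, Bcat2 by -0.75 and Atic by -0.55.

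For TFIID 1 library per subunit was used, and different subunits are not replicates of 1 condition. As a group, the 15 libraries against the 2 set A controls gave 0 members called by limma (0.208% of all genes higher and 0.0308% lower), with 1 higher and 3 lower at an unadjusted p under 0.05. The median member differed by -0.13 and the median of all genes by 0.04, and 26 of 32 members were below 0. Nupr1 was 17.7 and 17.2 RPKM in the controls and, over the TFIID libraries, 3.04 at the lowest (shTaf6), 7.57 at the median and 18.6 at the highest (shTaf4b), a log2 difference of -1.003 (limma adjusted p = 0.446). Mthfd2 was 40.1 and 47.9 RPKM in the controls and between 19.3 and 43.7 with a median of 29.1 in TFIID libraries (log2 difference -0.51). Tdh was 52.6 and 62.3 RPKM in the controls and between 25.3 and 58.1 with a median of 40.2 (-0.59). For each of these 3 genes the TFIID libraries reached from far below the controls to within or above their range. Against the 5 tail libraries, which share no sample with the TFIID side, limma called 0 members (4.46% of all genes higher and 2.57% lower), with 1 higher and 2 lower at an unadjusted p under 0.05; the lowest limma adjusted p values were 0.0746 for Slc38a2 (log2 difference 0.21) and 0.0843 for Cth (-0.39). With both libraries of every label, whatever their target level, 3 members were called higher and 1, Cth, lower, against 11.8% and 6.92% of all genes.

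In single replicate 2 libraries of set A, with no replicate and so no test, 17 of 640 member values lay at least 1 log2 unit below the control mean and outside both controls, and 1 lay above, against 0.3% and 0.303% of all gene values. Nupr1 made up 9 of the 17, in shTaf1, shTaf2, shTaf3, shTaf5, shTaf6, shTaf8, shTaf12, shTaf13 and shMed24. The shTaf12 library, whose subunit the design text also names, held 4, where 0.655% of all its gene values lay as low. These were Nupr1 at 3.25 RPKM, Tdh at 25.3, Mthfd2 at 19.3 and Psat1 at 44.2 against 89.0 and 100.0 in the controls. In that library 29 of 32 members were below the control mean with a median difference of -0.55, and in shTaf6 27 were, with a median of -0.40. In shTaf11 the median was 0.17 and 9 members were below. The 1 value above was Ddit3 in shTbp, 33.3 RPKM against 12.1 and 12.8, in a library where 1.19% of all gene values lay as high. The summed feeder markers of the shTbp library were 6.57 RPKM, the highest among TFIID replicate 2 libraries, against 1.95 and 2.56 in the set A controls; their part in the Ddit3 level was not tested.

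**Figure D5:**
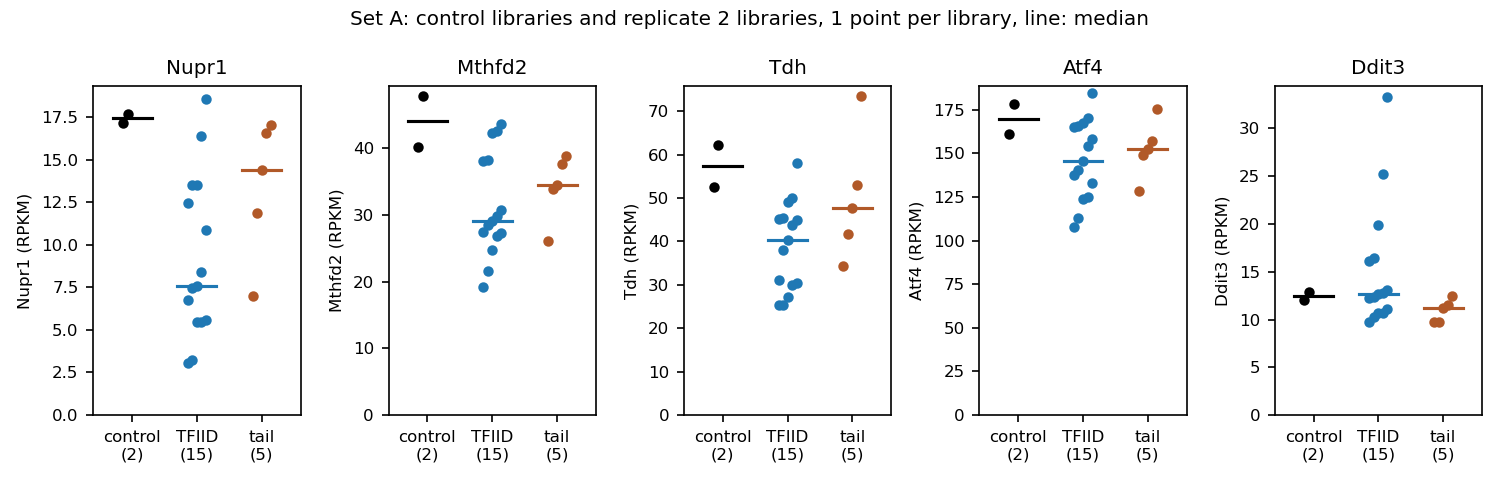
Each point is the RPKM of 1 library of set A for Nupr1, Mthfd2, Tdh, Atf4 and Ddit3, in the 2 control libraries, the 15 TFIID and the 5 tail replicate 2 libraries, with a line at the median. The Nupr1 points of TFIID spread from 3.04 to 18.6 RPKM, and 1 Ddit3 point, shTbp at 33.3 RPKM, stands above the others.

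In set C limma called 0 members for shMed1 and for shMed14 against their own control (0% of all genes each way), and 0 had an unadjusted p under 0.05; the fit had 3 residual degrees of freedom and in simulated data recovered 17% of genes changed by 1 on the log2 scale. The median member differed by -0.17 in both, with 29 of 32 below 0, and the median of all genes by 0.02 and 0.01. Both labels share the same 2 control libraries, and their replicate 2 targets stood at 97.9 and 99.1% of control. Against the set B control 17 members were called lower and 5 higher for each label, against 26.5% and 27.9% of all genes for shMed1 and 27.1% and 27% for shMed14. Nupr1 read 18.6 and 20.2 RPKM in the controls, 16.8 and 8.88 in the libraries labelled shMed1 and 7.81 and 18.7 in those labelled shMed14. The libraries of each label thus disagreed, in opposite order of their replicate numbers. The 3 controls themselves differed: Atf4 was 161 and 178 RPKM in set A, 188 and 187 in set B and 101 and 90.3 in set C, and Chac1 was 9.96 and 11.6, 12.6 and 11.8, and 2.57 and 2.11. Asns went the other way, at 94.5 and 97.8, 110 and 111, and 153 and 151 RPKM. Apart from that contrast of set C with the set B control and the single fit of all 100 libraries, libraries were compared within their own set.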

How the data were processed

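Messenger RNA was sequenced from V6.5 ES cells in 100 libraries, with a stranded kit per the labels' protocols. Per the submitters' processing notes, TopHat2 and the mm9 build were used; for the counting tool and strand setting the sources used here give nothing. The authors deposited RPKM per RefSeq transcript, 34995 lines per table. Lines were named from RefSeq (34471) and GENCODE (194), and 190 stayed unnamed. A gene with several transcripts was represented by the most abundant, judged by mean RPKM.

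Tests used limma 3.58.1 in R 4.3.3, with trend, on log2(RPKM + 1) of the 12973 genes that reached 1 RPKM in 2 or more libraries. Set B (52 libraries, 26 residual degrees of freedom), set A replicate 2 and set C were fitted apart, and modules on the means of each knockdown. Module membership came from textbook knowledge of Mediator. Depth came from the whole-read steps in low values. The members and the other lists were chosen with earlier results of these data known. Full values were given for members changed by at least 1 on the log2 scale in shMed4 or in a group comparison, for Atf4 and Ddit3, and for each member's extreme knockdowns. The steps were tested on simulated data: the shMed4 comparison recovered 95% of genes changed by 0.5 on the log2 scale. Alternatives were a pseudocount of 0.1, no filter, sums over transcripts, upper-quartile scaling, all libraries in 1 fit, a replicate block and leaving out libraries.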

Additional observations from a re-analysis of the deposited data

Results flagged for a closer look

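Over groups of 4 to 8 knockdown means or single libraries, 9 of 160 groups of member levels held a value far from the rest, where chance flags about 1 in 20. Among the head subunits shMed17 stood lowest for 4 members: Tdh at 16.2 RPKM, Mthfd2 at 27.0, Shmt1 at 24.0 and Mthfd1 at 80.1. In the kinase module shMed12 was highest for Ppp1r15a, at 13.9 RPKM, and lowest for Slc3a2, at 60.5. In the upper tail shMed29 was highest for Eif4ebp1, at 184 RPKM. Among the tail libraries of set A shMed24 was lowest for Chac1, at 4.14 RPKM, and for Slc3a2, at 61.5.

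The 20 set A libraries labelled replicate 1, whose targets stood at 56.9 to 173% of the control (median 102%), entered only the fits with both libraries of every label or with all 100 libraries. Of their 640 member values 31 lay at least 1 log2 unit below the control mean and outside both controls and 1 lay above, against 0.347% and 0.314% of all gene values. The shMed16 library, with Med16 at 56.9% of control, held 13 of the 31, where 1.6% of all its gene values lay as low, with a median member difference of -0.85 and with 8.61 RPKM of summed feeder markers, the highest of all libraries; their part was not tested.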

How the results depend on the processing

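The set B totals, 487 lower and 42 higher, depended most on the fit and the reference. With all 100 libraries in 1 fit, where set A pairs that disagree enter the spread (median standard deviation of log2 values 0.20 in set A and 0.10 in set B), 117 were called lower and 0 higher by limma (7 higher at an unadjusted p under 0.05), and shMed4 had 23 lower and 0 higher. Against the mean of the other 24 knockdowns 238 were lower and 316 higher, and shMed4 had 2 higher, Ddit3 (0.24, its sign turned) and Ppp1r15a (0.13); the sign of Asns also turned, at 0.00015 and not called. Leaving out 1 replicate or control library gave 414 to 468 lower and 30 to 38 higher, and 28 to 29 lower for shMed4, where Asns lost its call without replicate 1 (limma adjusted p = 0.0932). A pseudocount of 0.1, no filter, sums over transcripts and upper-quartile scaling gave 481 to 496 lower and 36 to 42 higher.

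The replicate block gave 504 lower and 45 higher. The labels tie the numbers to no batch. The correlation of replicate differences between set B groups was -0.02 to 0.21 with a median of 0.09, and it was over 0.1 in 141 of 325 pairs of groups. Replicate 2 was deeper than replicate 1 in 26 of 26 set B groups; a batch shared by number was not tested further.

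With both libraries of every set A label, TFIID against tail gave 3 members higher (Chac1 0.39, Slc38a2 0.18, Slc3a2 0.14) and 1 lower (Cth -0.40), against 11.8% and 6.92% of all genes. Without control replicate 2, 2 single set A values were higher, against 1 otherwise. Against the set B control, whose title can be read to cover Med1 and Med14, 5 members were higher and 17 lower for each (27.9% and 26.5% of all genes for shMed1, 27% and 27.1% for shMed14). Among the members called there, the sign turned for shMed1 in Trib3 (-1.30), Sesn2 (-1.13), Slc7a1 (-0.88), Phgdh (0.50), Mthfd1l (0.25), Asns (0.29), Gpt2 (0.52) and Gldc (0.41). For shMed14 it turned, again among called members, in Trib3 (-1.29), Sesn2 (-1.14), Ppp1r15a (-0.57), Phgdh (0.45), Mthfd1l (0.28), Asns (0.29), Gpt2 (0.52) and Gldc (0.40). Sign changes of members that were not called are not listed. The causes were not tested. The 2 controls differ in level, as for Atf4 (101 and 90.3 RPKM in set C, 188 and 187 in set B).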
